A study of Homo sapiens with 5 samples.

Results

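The genes described here are the antisense and intergenic long noncoding RNAs of A549 cells, a human lung carcinoma line of epithelial origin. They were chosen by name and by level. A symbol had to start with LINC or end in -AS and a number, EPB41L4A-AS1 was left out, and the gene needed at least 10 exon counts in at least 2 of the 5 libraries. Of 23340 genes in the exon table, 292 carried such a symbol and 50 of these reached the counts, 28 named LINC and 22 named as the antisense of another gene. Of the 242 that did not, 164 had no count in any library. The intron table held the same symbol for 37 of the 50.

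RNA depleted of ribosomal RNA was sequenced from cells transfected with Lipofectamine. Cells received the 23N Randomer oligo (9 h or 16 h), the Control Oligo (9 h or 16 h) or Lipofectamine without oligo (16 h), called mock. Both oligos were given at 50 nM. Each group was 1 library and has no replicate, and the labels do not say whether the wells were separate cultures. What the oligos are made of was not given in the sources used here.

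Most antisense RNAs are read from the strand opposite a coding gene, and they can share bases with its exons, lie inside it or leave from the same promoter region. Intergenic long noncoding RNAs lie between coding genes and are often expressed at low levels and in few cell types. Some of both kinds are hosts of small nucleolar RNAs, which are cut from their introns and guide the chemical modification of ribosomal and other RNAs. A few RNAs first named in this way are now typed as coding, because a short protein was found to be read from them.

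Exon counts summed to 1792192 and 1476223 in the randomer libraries, 2629053 and 2596995 in the control oligo libraries and 1957361 in mock. Intron counts summed to 1768491 and 1947593 with randomer, 740408 and 773339 with control oligo and 603142 in mock. The A549 markers ALDH1A1, AKR1B10, AKR1C2 and AKR1C3 were present in every library, with 3629 and 2428 exon counts in all with randomer, 7810 and 8998 with control oligo and 5275 in mock. Of 6 epithelial markers, KRT8 and KRT18 carried nearly all of the counts, and EPCAM had 0 and 4 counts with randomer and 0 in the other libraries. Leukocyte markers were low: 5 of them summed to 81 and 140 counts with randomer, 0 and 18 with control oligo and 6 in mock, with PTPRC and CD3E at 0 throughout. The 3 endothelial markers summed to 58 and 81 with randomer and to 0 in the other libraries. The 4 fibroblast markers summed to 293 and 130 with randomer, 514 and 308 with control oligo and 293 in mock. Most of these were counts of COL1A1, with 276 and 115 with randomer, 504 and 275 with control oligo and 284 in mock. The leukocyte and endothelial markers moved in the direction of the members called below, and their part in those results was not tested.

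The sequences below are the promoter windows of 5 members, from 250 bases before the annotated start to 50 bases after it. LINC00346, LINC00324, CFLAR-AS1 and LINC00338 are shown because their exon counts were called higher with randomer and their windows hold the motif TGACG on either strand. LINC00473, an RNA known to be induced by cyclic AMP through the transcription factor CREB, is shown because its window holds that motif more than once and its exon counts were not called. Capitals mark TGACG or its reverse complement CGTCA, the core of sites bound by CREB and ATF proteins, and TGACTCA or its reverse complement TGAGTCA, the site of AP-1. No copy of one motif overlapped a copy of the other. The sequences are from RefSeq, build GRCh38.p14, and run in the direction of transcription. LINC00346 lies at chr13:110870259-110870558, minus strand. LINC00324 lies at chr17:8223994-8224293, minus strand. CFLAR-AS1 lies at chr2:201157743-201158042, minus strand. LINC00338, listed as SNHG20, lies at chr17:77088393-77088692, plus strand. LINC00473 lies at chr6:165987990-165988289, minus strand.
LINC00346: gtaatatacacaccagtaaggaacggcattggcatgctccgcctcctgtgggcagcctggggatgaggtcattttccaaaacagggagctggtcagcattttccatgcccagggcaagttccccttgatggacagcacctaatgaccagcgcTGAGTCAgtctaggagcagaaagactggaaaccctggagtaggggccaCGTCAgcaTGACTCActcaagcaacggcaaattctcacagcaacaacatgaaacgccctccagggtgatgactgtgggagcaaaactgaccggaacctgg
LINC00324: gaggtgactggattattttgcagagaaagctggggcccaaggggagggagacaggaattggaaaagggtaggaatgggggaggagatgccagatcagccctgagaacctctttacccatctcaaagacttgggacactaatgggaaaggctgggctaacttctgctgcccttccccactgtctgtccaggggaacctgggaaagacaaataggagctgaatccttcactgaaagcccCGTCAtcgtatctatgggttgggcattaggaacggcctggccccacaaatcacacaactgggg
CFLAR-AS1: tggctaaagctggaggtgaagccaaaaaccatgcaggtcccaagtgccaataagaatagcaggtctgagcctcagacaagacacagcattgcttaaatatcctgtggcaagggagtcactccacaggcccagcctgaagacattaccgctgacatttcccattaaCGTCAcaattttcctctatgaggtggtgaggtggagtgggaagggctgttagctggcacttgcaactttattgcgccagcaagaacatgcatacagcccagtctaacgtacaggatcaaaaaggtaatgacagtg
LINC00338: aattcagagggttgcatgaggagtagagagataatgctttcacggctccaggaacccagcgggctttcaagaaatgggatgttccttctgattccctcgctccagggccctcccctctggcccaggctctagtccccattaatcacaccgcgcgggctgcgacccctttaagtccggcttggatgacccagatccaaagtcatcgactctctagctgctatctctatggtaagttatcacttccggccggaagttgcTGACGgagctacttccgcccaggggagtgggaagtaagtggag
LINC00473: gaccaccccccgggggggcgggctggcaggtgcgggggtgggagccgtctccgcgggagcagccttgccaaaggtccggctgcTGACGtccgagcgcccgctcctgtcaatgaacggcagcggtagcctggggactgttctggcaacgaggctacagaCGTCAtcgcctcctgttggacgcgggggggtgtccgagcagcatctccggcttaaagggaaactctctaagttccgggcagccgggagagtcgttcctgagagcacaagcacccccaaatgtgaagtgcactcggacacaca

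RefSeq gave such a window for 45 of the 50 members. TGACG or its reverse complement was found in 5 of the 9 windows of members called higher (55.6%), in 11 of the 36 windows of members not called (30.6%) and in 25% of the 27305 promoter windows of the whole table. The fifth called member with a match was THAP7-AS1. The AP-1 site was found in 5 of the 45 member windows (11.1%), those of LINC00152, LINC00339, LINC00346, LINC00460 and LINC00486, and in 4.92% of all windows. The joined site TGACGTCA was in none of the 45 and in 1.98% of all windows, and TATAAA, on either strand, was in 2.22% of the member windows against 12% of all. The observed over expected frequency of the dinucleotide CpG had a median of 0.32 in windows of members called higher, 0.743 in those of members not called and 0.58 over all windows. These matches describe letters and were not tested against the counts.

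The members summed to 2637 and 2170 exon counts with randomer at 9 h and 16 h, 1807 and 1871 with control oligo and 1070 in mock. These sums were 0.147% of the exon counts in each randomer library (exact Clopper-Pearson 95% intervals 0.142% to 0.153% and 0.141% to 0.153%), 0.0687% and 0.072% with control oligo (0.0656% to 0.072% and 0.0688% to 0.0754%) and 0.0547% in mock (0.0514% to 0.058%). The intervals cover counting error only, and PCR copies are not independent molecules. C17orf76-AS1 and ZNFX1-AS1 alone held 44.3% and 35% of the member counts with randomer, 44.6% and 38.1% with control oligo and 37.4% in mock. Without them the other 48 members took 0.082% and 0.0955% with randomer, 0.0381% and 0.0446% with control oligo and 0.0342% in mock. At least 10 exon counts were found for 42 and 40 members with randomer (84% and 80%), 21 and 25 with control oligo (42% and 50%) and 24 in mock (48%). Of all 11407 genes at the same count rule, 91.9% and 89.4% had 10 counts with randomer, 88.5% and 89.2% with control oligo and 84.4% in mock. These sums and numbers use the exon counts that chose the members, 15 of which passed through the randomer libraries alone, and are a description. The 22 members that needed no randomer library took 0.108% and 0.0967% of the exon counts with randomer, 0.0638% and 0.067% with control oligo and 0.0504% in mock, and 16 and 15 of them had 10 counts with randomer, 17 and 20 with control oligo and 20 in mock.

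Because the members were chosen by these same exon counts, the way each one reached the 10 counts matters. The libraries without randomer were enough for 22 members, 8 needed both randomer libraries beside 1 other, 5 needed 1 randomer library and 1 other, and 15 reached the level in both randomer libraries and in no other. Those 15 had to be higher with randomer. Of the 50, 9 had no exon count in mock or in either control oligo library: CFLAR-AS1, FAM181A-AS1, HIF1A-AS2, IDI2-AS1, LINC00167, LINC00200, LINC00304, LINC00486 and THAP7-AS1. At the edge of the rule, LINC00167 had 10 and 14 counts with randomer and 0 elsewhere, LINC00511 had 10 and 2 with randomer, 10 and 0 with control oligo and 6 in mock, and LINC00515 had 14 and 0 with randomer, 6 and 10 with control oligo and 0 in mock. Just outside it, MCM3AP-AS1 had 9 and 4 counts with randomer, 0 and 17 with control oligo and 0 in mock, A1BG-AS1 had 9 and 12 with randomer, 2 and 3 with control oligo and 0 in mock, and FRMD6-AS1 had 0 and 19 with randomer, 8 and 0 with control oligo and 6 in mock.

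Randomer was compared with control oligo by edgeR's quasi-likelihood test over the 4 oligo libraries, with time as a term and Benjamini-Hochberg adjustment over 11407 genes. Rose and fell below mean an adjusted p under 0.05. Of the 50 members, 11 rose and 0 fell, against 6.79% of all genes that rose and 3.11% that fell. At an unadjusted p under 0.05 the numbers were 20 and 0, beside 1444 and 1007 of all 11407 genes. DESeq2 called 12 members higher and 0 lower, beside 805 and 424 of all genes, and 7 of the 12 were shared with edgeR. The antisense members gave 7 of 22 and the LINC members 4 of 28. Among the 15 that reached the rule through both randomer libraries alone, 6 were called, from which nothing is read since the rule chose them so. Among the 22 that reached it without randomer, 3 were called (ZNFX1-AS1, HNRNPU-AS1 and LINC00338), when all genes were filtered without the randomer libraries and 4.87% of 10148 genes rose. None of the 22 fell, against 3.42%. Their median log2 change was 0.65, against -0.07 over these genes. For all 50 it was 1.76, or 1.64 with genes at 0 in both control oligo libraries set to their bound, against 0.04 over all genes.

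**Figure D1:**
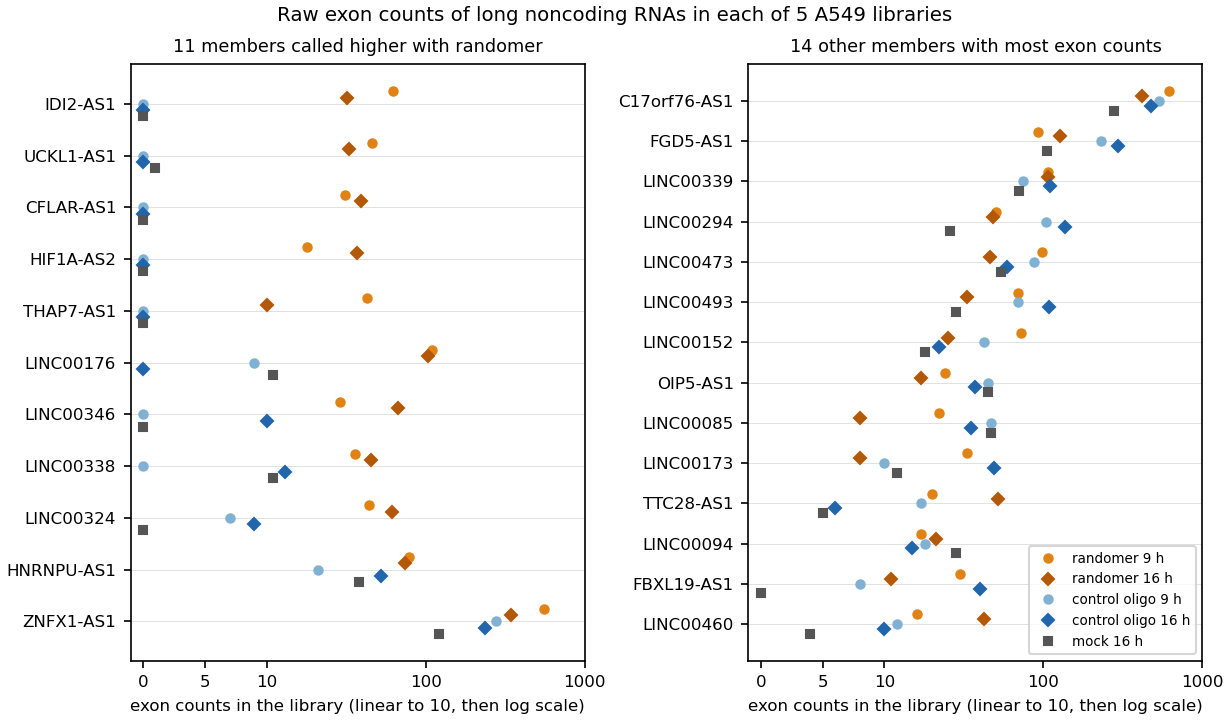
Raw exon counts of 25 members in each of the 5 libraries, the 11 called higher with randomer on the left and the 14 others with most counts on the right. Each point is 1 library, not scaled for depth, on an axis that is linear to 10 counts and logarithmic beyond. For IDI2-AS1 the randomer libraries hold 62 and 32 counts, against 0 in the control oligo and mock libraries.

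Among the hosts of small nucleolar RNAs, ZNFX1-AS1 and C17orf76-AS1 had the most exon counts of the members. ZNFX1-AS1, now named ZFAS1, lies on chromosome 20, starts close to ZNFX1 on the opposite strand and has been reported to limit or promote growth depending on the tissue. It had 554 and 343 exon counts with randomer at 9 h and 16 h, 275 and 235 with control oligo and 122 in mock. Scaled for depth, both randomer libraries stood above the other libraries. It was 2.81-fold higher at 9 h and 2.72-fold at 16 h, with counting intervals of 1.28 to 1.70 and 1.20 to 1.69 on the log2 scale. The fitted log2 change was 1.47 (SE 0.27, edgeR adjusted p = 3.35e-05). Over mock it was 3.69-fold higher at 16 h, while control oligo over mock was 1.36-fold. Its call held under every alternative that was run.

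C17orf76-AS1, now SNHG29 on chromosome 17, had 614 and 417 exon counts with randomer, 531 and 477 with control oligo and 278 in mock. The scaled ratios were nearly the same at both times, 1.61-fold and 1.63-fold, and the fitted log2 change of 0.70 (SE 0.25) did not pass edgeR's test (adjusted p = 0.058), whereas DESeq2 gave an adjusted p of 0.0207. LINC00338, now SNHG20 on chromosome 17, had 36 and 45 counts with randomer, 0 and 13 with control oligo and 11 in mock. It was at least 16.7-fold higher at 9 h, set against 3 counts in the empty library, and 6.46-fold higher at 16 h. The fitted log2 change was 4.04 (SE 1.19, edgeR adjusted p = 0.0158), and the call was lost with mock added and without the time term. In the GENCODE annotation 80.5% of its exon bases lie within SEC14L1, whose introns had 1053 and 844 counts with randomer, 61 and 64 with control oligo and 89 in mock. Whether reads of SEC14L1 were counted for LINC00338 was not tested.

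The introns of these hosts are listed in the intron table under other symbols, and those of ZNFX1-AS1 and C17orf76-AS1 rose. Those of ZNFX1-AS1 (as ZFAS1) had 1956 and 1173 intron counts with randomer, 992 and 864 with control oligo and 636 in mock (log2 change 1.40, SE 0.38, edgeR adjusted p = 0.00494). Those of C17orf76-AS1 (as LRRC75A-AS1) had 2054 and 1203 counts with randomer, 615 and 698 with control oligo and 556 in mock (log2 change 1.95, SE 0.39, edgeR adjusted p = 0.000446). The median over all introns was 1.96, so neither stood above the general intron shift. The intron row of LINC00338 (as SNHG20) was at 0 in every library.

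Among the antisense members that rose, HNRNPU-AS1 was the only one besides ZNFX1-AS1 to reach 10 counts in the libraries without randomer. It is listed in RefSeq only as another name of HNRNPU, which encodes a nuclear RNA-binding scaffold protein. It had 79 and 74 exon counts with randomer, 21 and 52 with control oligo and 38 in mock. The ratio was 5.24-fold at 9 h and 2.65-fold at 16 h, and randomer was 2.56-fold above mock at 16 h. The fitted log2 change was 1.87 (SE 0.57, edgeR adjusted p = 0.0203), and without the time term the adjusted p was 0.0918 in edgeR. HNRNPU itself had 3182 and 2118 exon counts with randomer, 4828 and 4186 with control oligo and 2998 in mock and was not called (log2 change -0.10, SE 0.17).

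The other 5 antisense members that rose had no exon count with control oligo, so folds are lower limits set against 3 counts in each control oligo library. IDI2-AS1, which overlaps the isoprenoid synthesis genes IDI1 and IDI2 on chromosome 10, had 62 and 32 counts with randomer and 0 elsewhere, at least 28.8-fold higher at 9 h and 19.9-fold at 16 h (edgeR adjusted p = 4.54e-05). UCKL1-AS1 on chromosome 20 had 46 and 33 counts with randomer, 0 and 0 with control oligo and 1 in mock, at least 21.4-fold and 20.5-fold higher (edgeR adjusted p = 0.000468). CFLAR-AS1 on chromosome 2 lies wholly within CFLAR, the gene of an inhibitor of caspase-8, and had 31 and 39 counts with randomer and 0 elsewhere, at least 14.4-fold and 24.3-fold higher (edgeR adjusted p = 0.00162). HIF1A-AS2, of whose exon bases 60% lie within the hypoxia factor gene HIF1A on chromosome 14, had 18 and 37 counts with randomer and 0 elsewhere, at least 8.35-fold and 23-fold higher (edgeR adjusted p = 0.0155). THAP7-AS1 on chromosome 22 had 43 and 10 counts with randomer and 0 elsewhere, at least 20-fold and 6.22-fold higher (edgeR adjusted p = 0.0438).

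These 5, and LINC00324 below, reached the rule through the randomer libraries alone. LINC00176 and LINC00346 reached it with both randomer libraries and 1 other. For these 8 the difference is a description and the p-value is no support, since the counts that chose them entered the test. With DESeq2 in place of edgeR, CFLAR-AS1, HIF1A-AS2 and IDI2-AS1 lost their calls (adjusted p = 0.186, 0.243 and 0.164 in DESeq2). THAP7-AS1 lost its edgeR call with DESeq2 size factors and with mock added, and the call of UCKL1-AS1 held in each alternative that tested it.

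**Figure D2:**
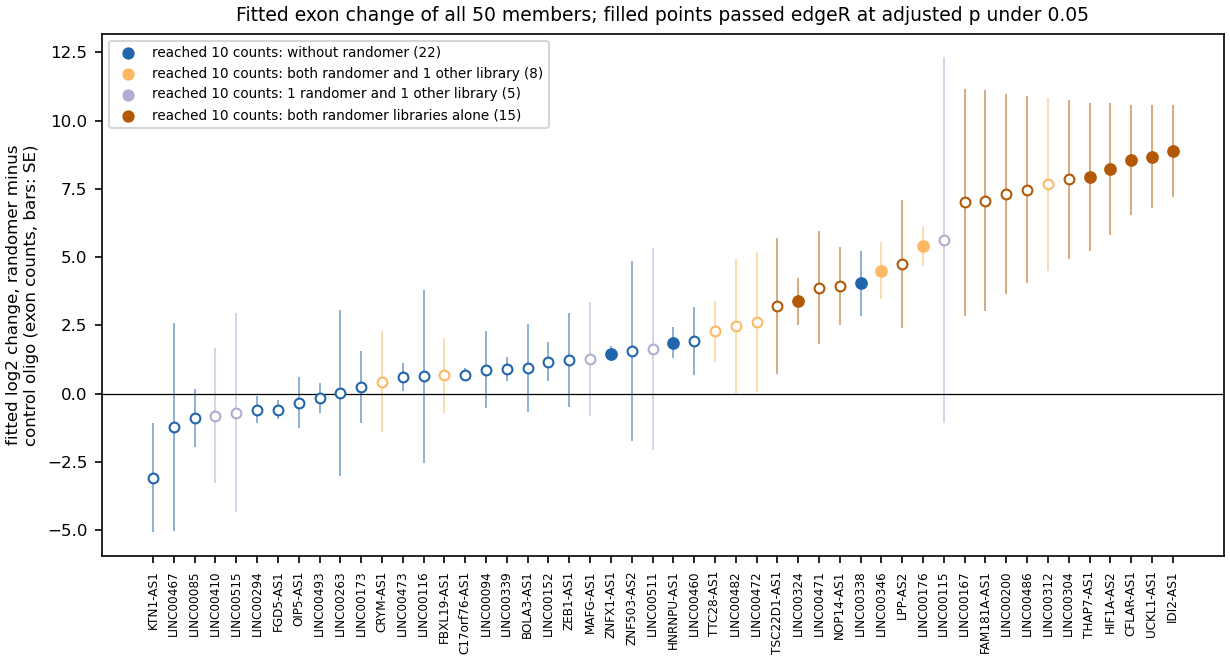
Fitted exon log2 change of the 50 members, randomer minus control oligo, with 1 SE, from edgeR over 4 libraries. Points are coloured by how the member reached 10 counts. The 15 members that reached it in both randomer libraries alone lie to the right by the way they were chosen, while the 22 that reached it without randomer have a median of 0.66. Fitted values of members at 0 in both control oligo libraries depend on the prior count of the fit.

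The gene named in the symbol of each antisense member, called its partner, was read from the same fit. Partners were taken by symbol. For HNRNPU-AS1 an opposite strand is not shown, since RefSeq lists it only as another name of HNRNPU. Of 22 antisense members, 21 had the gene named in their symbol in the exon table and 18 of these were tested, of which 1 rose, 1 fell and 16 were not called, with a median log2 change of 0.52. These calls lie near the shares of all genes, 6.79% higher and 3.11% lower. MAFG, encoding a small Maf transcription factor, had 465 and 339 exon counts with randomer, 451 and 238 with control oligo and 296 in mock (log2 change 0.96, SE 0.27, edgeR adjusted p = 0.0126). Its antisense MAFG-AS1 had 4 and 39 counts with randomer, 27 and 2 with control oligo and 0 in mock and was not called. KTN1, encoding the kinesin receptor kinectin, had 719 and 639 counts with randomer, 1829 and 1836 with control oligo and 1226 in mock (log2 change -0.75, SE 0.21, edgeR adjusted p = 0.0119). KTN1-AS1 had 8 and 0 counts with randomer, 41 and 21 with control oligo and 8 in mock, was 0.272-fold at 9 h and at least 3.75-fold lower at 16 h, and did not pass (log2 change -3.08, SE 1.99, edgeR adjusted p = 0.397).

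Of the 7 antisense members that rose, 6 had a tested partner and none of the 6 was called by exon counts (at an unadjusted p under 0.05 edgeR gave 1 above and 0 below, and DESeq2 called 0). By intron counts 3 of the 6 rose, and 0 of them did with the intron table's own scaling. CFLAR introns had 370 and 365 counts with randomer, 107 and 81 with control oligo and 132 in mock (log2 change 2.66, SE 0.49, edgeR adjusted p = 0.000186). HIF1A introns had 292 and 478 counts with randomer, 170 and 127 with control oligo and 137 in mock (2.03, SE 0.50, edgeR adjusted p = 0.00242), and HNRNPU introns had 375 and 522 with randomer, 232 and 248 with control oligo and 212 in mock (1.57, SE 0.45, edgeR adjusted p = 0.00691). THAP7-AS1 also shares bases with P2RX6, whose introns had 45 and 59 counts with randomer and 0 elsewhere. Over all partners, 12 of 18 rose by introns and 0 fell, with a median of 1.58, beside 47.6% of all genes that rose by introns and a median of 1.96. At an unadjusted p under 0.05 the partners gave 12 and 0, beside 6459 and 12 of 11983 genes. By DESeq2 they gave 13 and 0, beside 6996 and 29. With the intron table scaled by its own TMM factors, which takes out most of the general intron shift, 2 rose, 1 fell and the median was -0.05, beside 15.5% and 5.13% of all genes and a median of 0.32. FGD5 gave the highest value among them, with 95 and 130 intron counts with randomer and 0 in the control oligo and mock libraries. The strand setting of the counter was not given in the sources used here. Reads from the introns of a coding gene may be counted for an antisense RNA that lies inside it. How far that sets the antisense counts was not tested.

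In GENCODE, 45 members could be matched. Of these, 2 had all their exon bases within the body of another coding gene and 1 was called (CFLAR-AS1 but not LINC00294). Partly within one lay 22, of which 6 were called, and 21 lay outside every other coding gene, of which 3 were called. LINC00176, among the called ones outside, is itself typed as coding in GENCODE. Of all genes 6.79% rose. The calls include members that passed through the randomer libraries alone, so no difference by position is read from them. The median exon log2 change was 1.92 for those partly inside and 1.93 for those outside. 

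**Figure D3:**
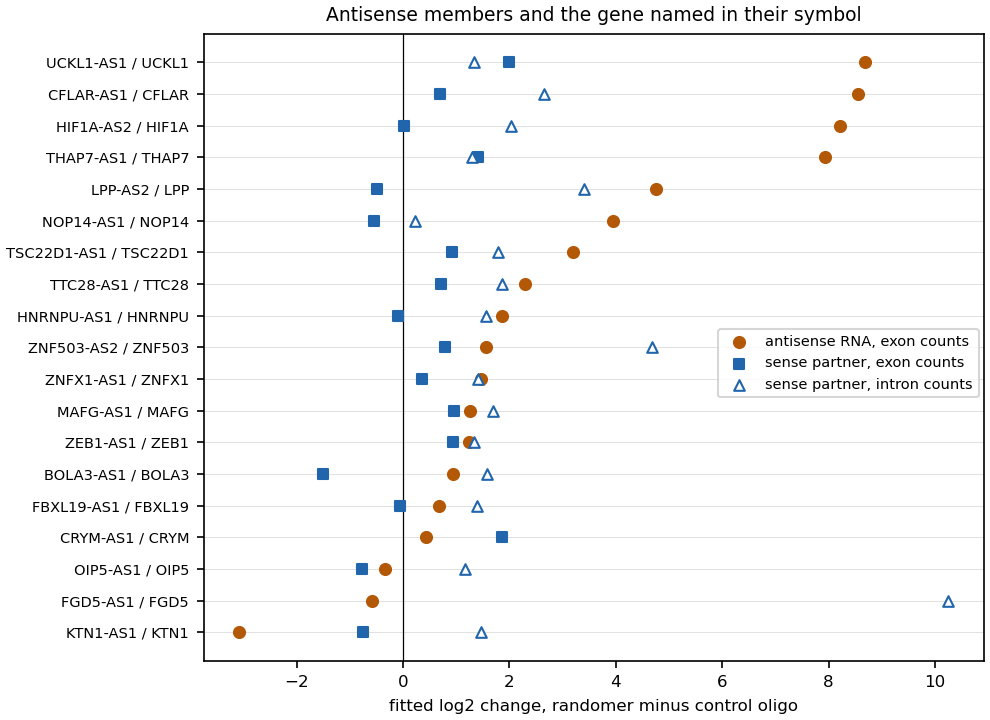
Log2 change, randomer minus control oligo, of antisense members by exon counts and of their partners by exon and intron counts, from edgeR. A partner is the gene named in the symbol, and the 19 members with a partner tested in either table are shown. Partner exon values are lowest for BOLA3 at -1.51 and highest for UCKL1, and partner intron values lie mostly to the right of them, with FGD5 introns, at 0 in both control oligo libraries, at 10.25.

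Of the LINC members, 4 rose. LINC00176, named C20orf204 and typed as a coding gene in RefSeq, had the most counts among them, 110 and 104 with randomer, 9 and 0 with control oligo and 11 in mock. It was 17-fold higher at 9 h, at least 64.7-fold higher at 16 h and 12.4-fold above mock at 16 h (log2 change 5.39, SE 0.72, edgeR adjusted p = 4.26e-09). Its adjusted p with DESeq2 was 0.0502. LINC00346 on chromosome 13, now named PRECSIT for its reported link to p53 and STAT3 in skin carcinoma, had 29 and 67 counts with randomer, 0 and 10 with control oligo and 0 in mock, at least 13.5-fold higher at 9 h and 12.5-fold at 16 h (log2 change 4.51, SE 1.05, edgeR adjusted p = 0.00131). Without the time term its adjusted p was 0.0656 in edgeR. Both of its AP-1 sites and its TGACG match stand in the window printed above.

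LINC00324 on chromosome 17 had 44 and 61 counts with randomer, 7 and 9 with control oligo and 0 in mock. It was 8.75-fold higher at 9 h and 12.6-fold at 16 h, with counting intervals of 1.97 to 4.53 and 2.64 to 4.86 on the log2 scale (log2 change 3.38, SE 0.87, edgeR adjusted p = 0.00464). In GENCODE its exons lie outside every coding gene, and the ratios were alike at both times. Its call held in each alternative that tested it. The filter set on the libraries without randomer left it out, so the call is no support, as said above. LINC00338, the fourth, is the host gene described above.

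Several members with a known role were not called. LINC00473, which is read at a high level in lung cancer lines that have lost the kinase LKB1, had 98 and 46 exon counts with randomer, 87 and 59 with control oligo and 54 in mock (log2 change 0.60, SE 0.51). OIP5-AS1, known as cyrano, which directs the decay of the microRNA miR-7, had 24 and 17 counts with randomer, 45 and 37 with control oligo and 45 in mock (-0.33, SE 0.93). LINC00152, now CYTOR and linked to growth and the cytoskeleton in many tumours, had 72 and 25 counts with randomer, 42 and 22 with control oligo and 18 in mock (1.17, SE 0.72). A nearly identical copy of LINC00152 exists elsewhere in the genome, so reads may be split between the copies and its values are uncertain.

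FGD5-AS1 and LINC00294 had fitted changes below 0 and were not called. FGD5-AS1 had 92 and 127 counts with randomer, 231 and 295 with control oligo and 105 in mock, with a fitted log2 change of -0.58 (SE 0.35, adjusted p = 0.357 by edgeR). LINC00294 had 50 and 48 counts with randomer, 103 and 137 with control oligo and 26 in mock, with a fitted log2 change of -0.59 (SE 0.49, adjusted p = 0.552 by edgeR). Both were lower with randomer than with control oligo at each time, yet randomer at 16 h stood 1.59-fold and 2.42-fold above mock. At 16 h the randomer library thus lay between mock and control oligo for these RNAs. LINC00339 had 106 and 106 counts with randomer, 74 and 110 with control oligo and 70 in mock (0.92, SE 0.44, edgeR adjusted p = 0.201).

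The members that RefSeq now types as coding, other than LINC00176, were not called. LINC00493, now SMIM26 and encoding a small mitochondrial protein, had 69 and 33 counts with randomer, 69 and 109 with control oligo and 28 in mock (log2 change -0.16, SE 0.54). LINC00085, now SPACA6 and needed for the fusion of sperm and egg, had 22 and 8 with randomer, 47 and 35 with control oligo and 47 in mock (-0.90, SE 1.06). LINC00094 (BRD3OS) had 17 and 21 with randomer, 18 and 15 with control oligo and 28 in mock. LINC00116, now MTLN and encoding the mitochondrial microprotein mitoregulin, had 5 and 5 with randomer, 31 and 0 with control oligo and 14 in mock.

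Other members were high in the randomer libraries without passing edgeR's test. NOP14-AS1 had 19 and 46 counts with randomer, 3 and 3 with control oligo and 0 in mock (log2 change 3.95, SE 1.42, edgeR adjusted p = 0.0603). LINC00304 had 19 and 24 counts with randomer and 0 elsewhere (edgeR adjusted p = 0.0746), LINC00486 had 23 and 12 and 0 elsewhere, LINC00200 had 19 and 12 and 0 elsewhere, and FAM181A-AS1 had 11 and 14 and 0 elsewhere. DESeq2 called C17orf76-AS1, LINC00304, LINC00312, LINC00486 and NOP14-AS1 where edgeR did not. Some members were high at a single time: TTC28-AS1 had 20 and 52 counts with randomer, 17 and 6 with control oligo and 5 in mock, LINC00460 had 16 and 42 with randomer, 12 and 10 with control oligo and 4 in mock, and ZEB1-AS1, which shares its start region with the gene of the repressor ZEB1, had 5 and 34 with randomer, 8 and 11 with control oligo and 12 in mock. For these the randomer library at 16 h was the highest of the 5.

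Intron counts were not used to choose the members, but the exon counts of the same libraries were, and a member needed 10 intron counts in 2 libraries to be tested. Of the 37 members with an intron row, 5 had no intron count at all and 20 were tested. Of these 20, 8 rose and 0 fell, against 47.6% of 11983 genes that rose and 0.0501% that fell. At an unadjusted p under 0.05 the numbers were 8 and 0, beside 6459 and 12 of all genes. By DESeq2 they were 10 and 0, beside 6996 and 29. The share of members that rose was thus no larger than that of all genes. By route, 5 of the 7 tested members that passed through both randomer libraries alone rose (median log2 change 5.07), and 2 of the 8 that needed no randomer library rose (median 1.42). The median intron log2 change was 2.52, or 2.34 with genes at 0 in both control oligo libraries set to their bound, against 1.96 over all genes. With the intron table scaled by its own TMM factors, which lowers the median of all genes to 0.32, 5 members rose, 1 fell and the median was 0.88, against 15.5% of genes that rose and 5.13% that fell. With the filter set on the libraries without randomer, 10 members were tested, of which 3 rose and 0 fell, against 48.7% and 0.125% of all genes.

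LINC00152 and LINC00486 had the most intron counts among those that rose. LINC00152 had 683 and 557 intron counts with randomer, 92 and 75 with control oligo and 53 in mock, 10.3-fold higher at 9 h and 13.9-fold at 16 h (log2 change 3.58, SE 0.47, edgeR adjusted p = 5.95e-06). LINC00486 had 308 and 232 intron counts with randomer, 39 and 32 with control oligo and 40 in mock, 11-fold and 13.5-fold higher (3.60, SE 0.55, edgeR adjusted p = 2.62e-05). IDI2-AS1 had 223 and 203 with randomer, 15 and 6 with control oligo and 0 in mock, 20.7-fold and 63.1-fold higher (5.07, SE 0.67, edgeR adjusted p = 6.14e-06). In all 3 both randomer libraries stood above the rest, while the exon log2 change of LINC00152 was 1.17 and not called.

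CFLAR-AS1 had 102 and 111 intron counts with randomer, 0 and 0 with control oligo and 1 in mock, at least 47.3-fold and 69-fold higher (edgeR adjusted p = 6.28e-06). FAM181A-AS1 had 37 and 97 with randomer and 0 elsewhere, at least 17.2-fold and 60.3-fold higher (edgeR adjusted p = 6.97e-05). NOP14-AS1 had 69 and 82 with randomer, 8 and 7 with control oligo and 3 in mock, 12-fold and 21.9-fold higher (3.99, SE 0.91, edgeR adjusted p = 0.0013). LINC00511 and LINC00467 also rose, with 27 and 46 intron counts with randomer, 0 and 0 with control oligo and 5 in mock for LINC00511 (edgeR adjusted p = 0.00247). LINC00467 had 85 and 75 with randomer, 2 and 51 with control oligo and 36 in mock (log2 change 3.16, edgeR adjusted p = 0.0135), so the libraries at 16 h were closer, 2.74-fold. CFLAR-AS1, FAM181A-AS1, IDI2-AS1, LINC00511 and NOP14-AS1 reached 10 intron counts in 2 libraries only with the help of randomer libraries, so their p-values are no support. LINC00486 became a member through exon counts in both randomer libraries alone, so its intron p-value is no support either. With the intron table's own scaling LINC00467, LINC00511 and NOP14-AS1 lost their calls, and without the time term LINC00467 did.

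LINC00473 was among the tested members whose introns were not called. Its introns had 571 and 559 counts with randomer, 647 and 748 with control oligo and 692 in mock. These were the most of the 20 tested members in the libraries without randomer. The fitted log2 change, 0.39 (SE 0.40, adjusted p = 0.454 by edgeR), lay below the median of all introns. Other members did so too, among them LINC00410 at 0.79, LINC00472 at 0.91 and OIP5-AS1 at 0.97. Of the 20, 19 lay above 0, and CRYM-AS1 had -1.81 (SE 2.73). With the intron table's own scaling the log2 change of LINC00473 was -1.26 (edgeR adjusted p = 0.00147). This was the single member called lower under that scaling, and the direction turns with it. Among the 20 members tested in both tables the intron change exceeded the exon change in 11 (55%), and in 88.1% of 9295 genes. The median of intron minus exon log2 change was 0.50 for the members and 1.60 for all genes. The members were chosen by exon counts, and how far that sets this difference was not tested. The contrast with all genes is therefore not read as a result. For the 8 that needed no randomer library the intron change exceeded the exon change in 6, with a median difference of 1.22. For the 7 that passed through both randomer libraries alone it did so in 3, with a median of -0.63. For the 3 that needed both randomer libraries and 1 other it did so in 0, with a median of -1.71. For the 2 that needed 1 randomer library and 1 other it did so in 2, with a median of 4.29.

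**Figure D4:**
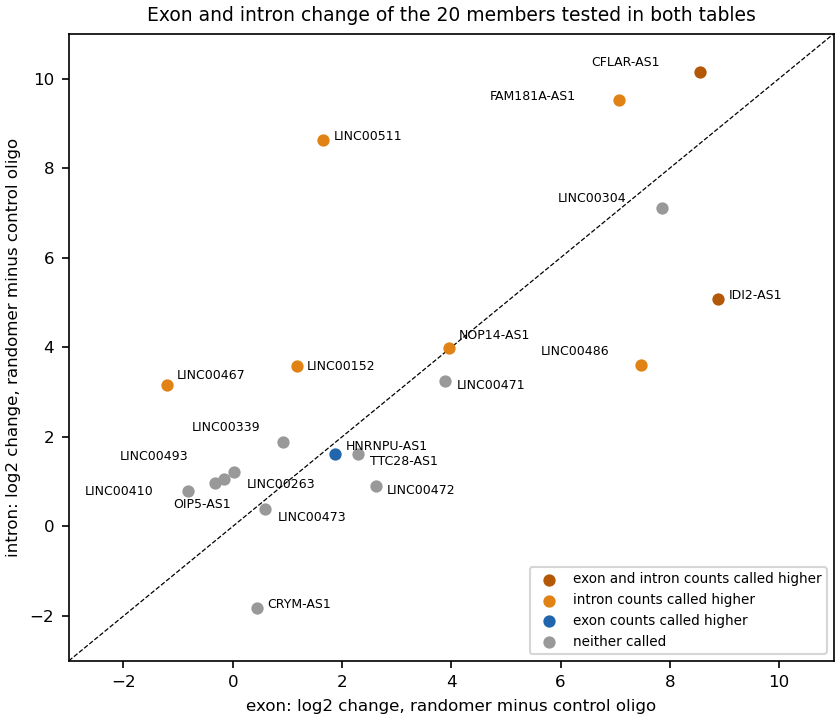
Intron against exon log2 change, randomer minus control oligo, for the 20 members tested in both tables, from edgeR. The dashed line marks equal change. LINC00511, LINC00467 and LINC00152 lie far above it, IDI2-AS1 and LINC00486 below it, and 11 of the 20 lie above.

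At single times no test is possible. Randomer was at least 2-fold above control oligo for 27 members at 9 h and 33 at 16 h, and at least 2-fold below for 4 and 5, against 20.7% and 23.5% of all genes above and 11.9% and 14.4% below. Over mock at 16 h it was at least 2-fold above for 28 members and below for 6, against 25.5% and 14.3% of all genes. Both randomer libraries stood above both control oligo libraries for 29 members and below for 4, against 27.6% and 23.8% of all genes. With mock included the numbers were 27 and 3, against 22.5% and 18%. All of these counts include the 15 members that had to be higher by the rule.

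By intron counts randomer was at least 2-fold above control oligo for 14 of the 20 tested members at 9 h and 16 at 16 h, against 67.4% and 75.2% of all genes, and below for 2 and 0, against 5.04% and 3.47%. Over mock at 16 h it was above for 16 and below for 0, against 72.3% and 4.12%. Both randomer libraries stood above both control oligo libraries for 14 and below for 0, against 76% and 3.14%, and above or below control oligo and mock for 13 and 0, against 70.2% and 2.18%. Control oligo was at least 2-fold above mock for 6 and below for 3 (30% and 15%), against 16.3% and 17.7%. From 9 h to 16 h, 7 were higher and 1 lower with randomer, against 30.4% and 5.12%, and 6 were higher and 3 lower with control oligo, against 18.6% and 14%.

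Control oligo was set against mock at 16 h. It was at least 2-fold above mock for 11 members and below for 10 (22% and 20%), against 14.1% and 10.8% of all genes, with a median log2 ratio of -0.33. Among members averaging at least 50 exon counts, LINC00294 stood highest at 3.71-fold (log2 interval 1.28 to 2.56), followed by LINC00493 at 2.74-fold (0.84 to 2.11) and FGD5-AS1 at 1.98-fold (0.66 to 1.32). LINC00473 was lowest at 0.769-fold, with HNRNPU-AS1 at 0.963-fold and LINC00339 at 1.11-fold, and the intervals of these 3 include no difference.

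From 9 h to 16 h with randomer, 11 members were at least 2-fold higher and 7 lower, against 15% and 11.9% of all genes. With control oligo 9 were higher and 9 lower, against 11.9% and 10.4%. Among members averaging at least 50 exon counts, FGD5-AS1 was 1.86-fold at 16 h over 9 h with randomer, LINC00339 1.35-fold and LINC00294 1.29-fold. LINC00473 was 0.633-fold, LINC00493 0.645-fold and ZNFX1-AS1 0.835-fold. With control oligo FGD5-AS1 was 1.29-fold and LINC00473 0.683-fold, on the same side as with randomer. LINC00493 was on the other side, at 1.59-fold with control oligo.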

How the data were processed

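Exon and intron counts of A549 cells were taken as the authors deposited them, as raw counts per gene symbol in 5 libraries. The submitters' processing notes name TopHat2, HTSeq and hg19 with no versions. Counting by strand was not given in the sources used here, and an antisense RNA may share reads with the gene it overlaps. From both tables, 28 rows whose symbols had turned into dates were removed in each (0.153% to 0.22% of exon counts and 0.214% to 0.289% of intron counts). All columns were mapped to a library, leaving 0 unmapped. 

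The test was edgeR 4.0.16 (R 4.3.3) with quasi-likelihood fits on 4 libraries (both oligos, both times), an additive time term and 1 residual degree of freedom. The times serve as repeats, so a change of the oligo effect between times counts as spread. The p-values measure only the spread between these libraries, shared largely across genes since each gene has 1 residual degree of freedom. This spread may be technical. Genes needed 10 counts in 2 of 5 libraries. TMM library sizes of the exon table were also used for introns, which keeps a general intron shift. SE is the absolute log2 change divided by the square root of F. Single-time log2 ratios add 0.5 to each count. The folds given for single times are ratios of scaled counts without that addition. Counting intervals are exact at 95% (scipy 1.17.1) and, like the floor of 3 counts per library, cover counting error only. With counts mostly below 100, members have wide intervals. DESeq2 1.42.0 was an alternative test, beside other scalings, filters, samples and terms. The fits were tested on simulated data.

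Members, lists, coding hosts and motifs were chosen with earlier results of these data known. Named genes are the 20 members with most exon counts, called members with a mean of at least 20, up to 8 members at 0 without randomer, members with a known role, the extremes of control oligo over mock and of 16 h over 9 h, the partners of antisense members and those at the edge of the rule. UCKL1-AS1, LINC00312, MAFG-AS1, KTN1-AS1, P2RX6, SEC14L1 and the motif holders were named after their values were seen. Promoters came from RefSeq and overlaps from GENCODE 29, both on GRCh38, so no coordinates of counted genes are given. 49 members matched RefSeq, 14 under another current symbol and 5 typed as coding. 1 gene of the A549 marker list is not reported here.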

Additional observations from a re-analysis of the deposited data

Results flagged for a closer look

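LINC00116, LINC00173 and LINC00493 had ratios of randomer over control oligo on opposite sides at 9 h and 16 h. They were not the only ones. By exon counts the log2 ratios at 9 h and 16 h were -2.13 and 4.88 for MAFG-AS1, 2.51 and -0.52 for BOLA3-AS1 and 2.32 and -0.92 for FBXL19-AS1. With 1 library per group and time, these differences were not tested. LINC00116 had 5 and 5 exon counts with randomer at 9 h and 16 h and 31 and 0 with control oligo, log2 ratios of -2.04 and 4.36 that differ by -6.40 (9 h minus 16 h). LINC00173 had 33 and 8 exon counts with randomer and 10 and 49 with control oligo, log2 ratios of 2.15 and -1.64 that differ by 3.79. LINC00493 had 5 and 24 intron counts with randomer and 21 and 3 with control oligo, log2 ratios of -1.49 and 3.71 that differ by -5.20. The values given for LINC00116, LINC00173 and LINC00493 rest on fewer than 50 counts per library.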

How the results depend on the processing

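No paired analysis was possible because each group holds 1 library and so no replicate numbers to block on. The time term of the fit sets the oligos against each other within each time, and its removal is among the alternatives. Of 418 values of single members under alternatives, 387 kept their direction and side of the threshold, 14 lost a call, 9 gained one and 8 changed direction. With the filter set on the libraries without randomer, 3 members were called higher by exon counts and 3 by intron counts, with medians of 0.65 and 1.41. LINC members alone gave 4 by exons and 4 by introns, fewer by construction. The intron table's own TMM gave 5 higher, 1 lower and a median of 0.88, and turned the intron log2 changes of HNRNPU-AS1 to -0.02, LINC00473 to -1.26, LINC00493 to -0.54, OIP5-AS1 to -0.67 and TTC28-AS1 to -0.04, as scaling away a general shift lowers every value. The intron median was 1.75 with a mean of at least 10 counts, 3.24 with no filter and 2.05 without the time term, and the cause was not tested. By exons LINC00116 turned to -0.93 with mock added and -0.92 without the time term, and LINC00493 to 0.06 with mock added, none of them called; the cause was not tested. Depth limits most members, whose median was 8 to 22 exon counts per library.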

Other observations

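Other noncoding genes of the exon table stood beside the members as follows. Of 25 tested genes among other named long noncoding RNAs, 8 rose by edgeR (KCNQ1OT1, MIR22HG, EPB41L4A-AS1, RMRP, SNHG1, SNHG7, SNHG8 and SNHG12) and 0 fell (12 and 0 at an unadjusted p under 0.05, 10 and 0 by DESeq2), with a median log2 change of 0.61, against 6.79% of all genes that rose. Of 218 tested uncharacterised LOC symbols, 24 rose and 0 fell (47 and 2 unadjusted, 31 and 0 by DESeq2), with a median of 1.10. Of all 11407 genes by exon counts, 1444 were higher and 1007 lower unadjusted, and 805 and 424 by DESeq2. With the filter set on the libraries without randomer 15 of 134 LOC symbols rose and the median was 0.29, against 4.87% of 10148 genes and a median of -0.07. By intron counts, 149 of 277 LOC symbols rose and 0 fell (170 and 0 unadjusted, 195 and 0 by DESeq2), with a median of 5.12, against 47.6% of all genes that rose. Of all 11983 genes, 6459 were higher and 12 lower unadjusted, and 6996 and 29 by DESeq2. With the intron table's own scaling 65 rose and 5 fell, with a median of 3.48, against 15.5% and 5.13% of all genes.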
